A study of Caenorhabditis elegans with 15 samples.

Results

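The genes described here are unc-86, mec-3, egl-44, egl-46, dma-1 and sax-7, which act in the fate of touch receptor neurons and in the dendrites of the PVD neuron of Caenorhabditis elegans. They were taken by gene symbol, and they are 6 of the 17118 genes with a probe set on the array. The 6 genes were chosen on their log2 values in the 5 strains of the study, which were already known, so their levels and differences between strains are given below as a description, with no test. They had 11 probe sets in all, 1 each for unc-86, mec-3 and dma-1, 2 each for egl-44 and egl-46 and 4 for sax-7, and each gene had at least 1 bright enough for all 6 to be among the 8653 genes tested across the array.

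Touch receptor neurons sense gentle touch, and PVD and FLP are neurons with branched dendrites that cover the body and the head and sense harsh touch. UNC-86, a POU homeodomain factor, switches on mec-3, and UNC-86 with MEC-3, a LIM homeodomain factor, activates the genes of the touch receptor neuron. EGL-44, a TEA domain factor, and EGL-46, a zinc finger protein, bind each other and keep touch receptor genes off in FLP, and both also act in other neurons. DMA-1 is a leucine-rich repeat receptor on the PVD dendrite. It is held by a complex of SAX-7, the worm's L1-type cell adhesion molecule, and MNR-1, both in the epidermis, with the secreted protein LECT-2. PVD is born after hatching, whereas FLP and most touch receptor neurons are present in the newly hatched larva. Whether PVD was present in the larvae used here was not examined. The levels below, also of genes named for the PVD dendrite, are therefore those of whole larvae and not of PVD.

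Total RNA came from whole larvae that hatched without food and then fed on OP50 bacteria for 6 to 7 h, labelled as stages L1 to L2, in 13 biological samples on 15 Affymetrix arrays. The 3 wild-type samples were of the Bristol strain N2. The mutants were strain VC446 with alg-1(gk214) on chromosome X (3 samples), BB11 with rde-4(ne299) on III (3 samples), RB774 with zfp-1(ok554) on III (2 samples) and MT3033 with lin-35(n745) and unc-13(e1091) on I (2 samples). Each mutant is represented by 1 strain, and in the lin-35 unc-13 strain the effects of the 2 mutations cannot be told apart. alg-1 encodes a microRNA Argonaute, rde-4 a protein that binds double-stranded RNA and works with Dicer, zfp-1 a PHD finger chromatin protein, lin-35 the worm's retinoblastoma protein and unc-13 a protein that readies synaptic vesicles for release.

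All values are the authors' log2 values, so a step of 1 is a doubling. Wild-type replicates 1 and 2 stood apart from the other samples on the second principal component of all genes tested, at 46.1 and 49.3 against 13.6 in wild-type replicate 3 and -30.9 to 21.9 in the mutants. Values set against wild type are therefore also given against wild-type replicate 3 alone where this moved them. The log2 difference between the 3′ and 5′ control probe sets of actin, a measure of RNA integrity, was 1.94 to 2.96 in the rde-4 samples, highest in replicate 2, and 0.81 to 2.22 in the others. Among the mutated genes, rde-4 fell by 2.97 (limma adjusted p = 6.1e-06) and lin-35 fell by 1.61 (limma adjusted p = 0.0015) in their own strains, while alg-1 differed by -1.44 (limma adjusted p = 0.22), zfp-1 by 0.01 (0.99) and unc-13 by -0.14 (0.74).

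egl-46 and dma-1 were low in the zfp-1 and lin-35 unc-13 strains and close to wild type in the alg-1 and rde-4 strains. unc-86, mec-3 and egl-44 stayed within 0.37 of wild type in every mutant on their brightest probe sets. sax-7 was higher than wild type by 1.17 to 1.26 in 3 mutants and by 0.46 in the lin-35 unc-13 strain, and by 0.61 to 0.71 and -0.09 when wild-type replicate 3 alone was the control.

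**Figure D1:**
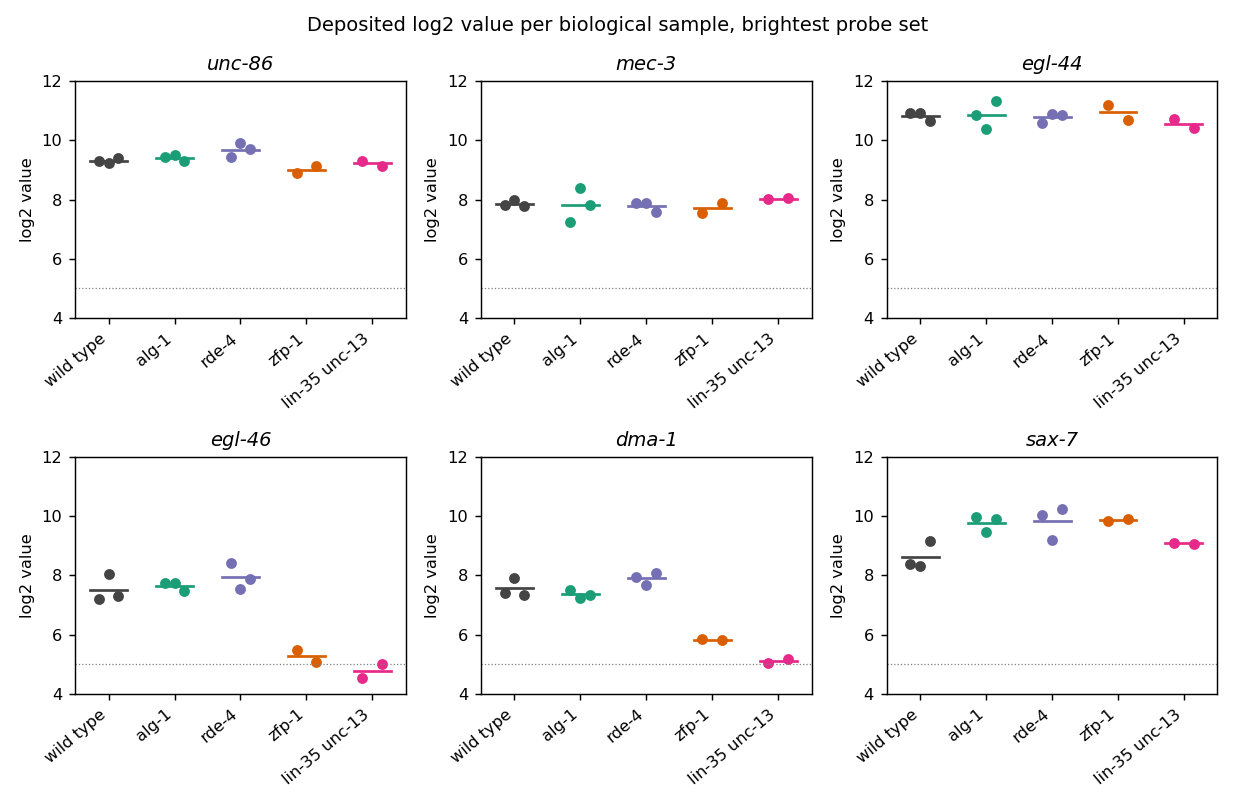
Deposited log2 value of the brightest probe set of each gene (vertical axis) in each biological sample (points) of the 5 strains, with the group mean as a horizontal line; the dotted line is the value of 5 below which probe sets were treated as dim. egl-46 and dma-1 lie at 7.19 or above in wild type, alg-1 and rde-4 and at 5.84 or below in zfp-1 and lin-35 unc-13.

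The gene egl-46 (K11G9.4, chromosome V) had log2 values of 7.19, 8.03 and 7.29 in wild type. The alg-1 samples lay at 7.74, 7.74 and 7.47 and the rde-4 samples at 8.43, 7.54 and 7.89, so these 3 strains overlapped. The zfp-1 samples were at 5.49 and 5.07, and the lin-35 unc-13 samples at 4.53 and 5.00, the lower of which was below 5. All 4 samples of these 2 strains thus lay below all 9 samples of the other 3 strains. The mean was 7.50 ± 0.46 (SD, n = 3) in wild type, 5.28 ± 0.30 (n = 2) in zfp-1 and 4.77 ± 0.34 (n = 2) in lin-35 unc-13. The log2 difference from wild type was -2.22 ± 0.32 (SE) in zfp-1, a level 4.66-fold lower, and -2.73 ± 0.32 in lin-35 unc-13. The lin-35 unc-13 mean lay below 5, where values are dim, so no fold is given for it. The zfp-1 samples lay near 5, so the 4.66-fold is only approximate. In alg-1 the log2 difference was 0.15 ± 0.28 and in rde-4 0.45 ± 0.28.

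In whole larvae, fewer cells that express a gene and less RNA per cell cannot be told apart. Against wild-type replicate 3 alone the egl-46 differences were -2.01 in zfp-1 and -2.53 in lin-35 unc-13, and over all 20 alternative settings and omissions of a sample they ranged from -2.43 to -1.96 and from -3 to -2.47. The 2 arrays of zfp-1 replicate 2 read 5.10 and 5.04, and those of lin-35 unc-13 replicate 2 read 4.88 and 5.12. A repeat of the array on the same sample therefore differed by 0.24 at most for egl-46. The other egl-46 probe set lay below 5 in every sample, and no order was read from it.

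The dendrite receptor gene dma-1 (T01G9.3, chromosome I, which also carries the lin-35 and unc-13 mutations) showed the same arrangement of strains. Its log2 values were 7.41, 7.91 and 7.35 in wild type, 7.52, 7.23 and 7.35 in alg-1, and 7.95, 7.66 and 8.07 in rde-4. They were 5.84 and 5.82 in zfp-1 and 5.04 and 5.17 in lin-35 unc-13. These 4 values lay below all others, and the lin-35 unc-13 samples lay below the zfp-1 samples. Against wild type, at 7.56 ± 0.31 (SD, n = 3), the log2 difference was -1.73 ± 0.21 (SE) in zfp-1, a level 3.32-fold lower, and -2.45 ± 0.21 in lin-35 unc-13, a level 5.47-fold lower. The lin-35 unc-13 values lay just above 5, below which values are dim, so the second fold is only approximate. The log2 difference was -0.19 ± 0.19 in alg-1 and 0.34 ± 0.19 in rde-4.

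Against wild-type replicate 3 alone, the dma-1 differences were -1.52 in zfp-1, -2.24 in lin-35 unc-13, 0.02 in alg-1 and 0.55 in rde-4. The 2 arrays of zfp-1 replicate 2 read 5.54 and 6.09, which is 0.55 apart and more than the 0.02 between the 2 zfp-1 samples. The 2 arrays of lin-35 unc-13 replicate 2 read 5.29 and 5.05. The step from zfp-1 to lin-35 unc-13, 0.72 ± 0.23 (SE), was thus little larger than the gap between 2 arrays of 1 sample. For egl-46 the same step was 0.52 ± 0.35.

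**Figure D2:**
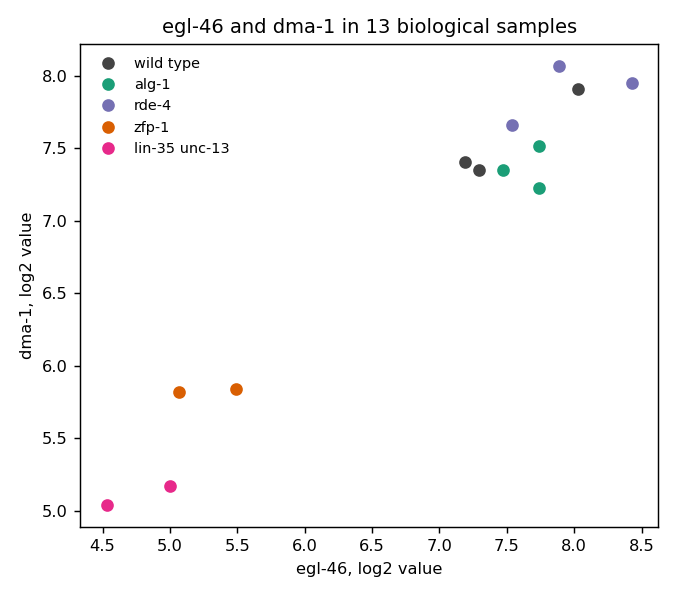
Log2 value of egl-46 (horizontal axis) against that of dma-1 (vertical axis) in the 13 biological samples, coloured by strain. The zfp-1 and lin-35 unc-13 samples lie apart at the lower left, and the 9 samples of the other strains lie at the upper right.

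Comparisons with wild type share its 3 samples. The zfp-1 strain set against alg-1, and lin-35 unc-13 set against rde-4, have no sample in common. For egl-46 the log2 differences in these 2 pairs were -2.37 ± 0.32 (SE) and -3.19 ± 0.32, and for dma-1 they were -1.54 ± 0.21 and -2.79 ± 0.21. These pairs use the same values on which the genes were chosen, so they describe the levels once more and are no separate evidence. For mec-3 the values were -0.10 ± 0.28 and 0.26 ± 0.28, and for egl-44 they were 0.10 ± 0.27 and -0.22 ± 0.27.

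The samples fall into 2 clusters for egl-46 and dma-1, so a correlation over all of them mainly restates that separation. Across the 13 samples Pearson's r between the 2 genes was 0.978 and Spearman's rho 0.874, and of the 8653 genes tested each was the one with the highest r to the other. Within the 9 samples of wild type, alg-1 and rde-4, r was 0.716. The samples share strain and array processing, and the value is a description only. The next genes by r were F35C12.3, at 0.931 with egl-46 and 0.920 with dma-1, then ctsa-1.1 at 0.921 with egl-46 and T04F8.2 at 0.919 with dma-1. Within the 9 samples r was 0.26 and 0.18 for F35C12.3 with the 2 genes in turn, 0.471 for ctsa-1.1 and 0.469 for T04F8.2. F35C12.3 had mean log2 values of 5.50 in wild type, 5.86 in alg-1, 5.97 in rde-4, 3.97 in zfp-1 and 3.68 in lin-35 unc-13, so its low samples were below 5. T04F8.2 had the same order of strains as dma-1, with strain means of only 7.12 to 7.65.

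The selector gene unc-86 (C30A5.7, chromosome III, which also carries zfp-1 and rde-4) had log2 values of 9.31, 9.24 and 9.40 in wild type and 9.44, 9.51 and 9.30 in alg-1. The rde-4 samples lay at 9.45, 9.91 and 9.69, all above wild type. The zfp-1 samples lay at 8.89 and 9.12, both below it, and the lin-35 unc-13 samples at 9.31 and 9.14 overlapped it. The differences from wild type were 0.37 ± 0.17 (SE) in rde-4, -0.31 ± 0.19 in zfp-1, 0.10 ± 0.17 in alg-1 and -0.09 ± 0.19 in lin-35 unc-13. They are small beside those of egl-46 and dma-1.

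Its target and partner mec-3 (F01D4.6, chromosome IV) lay at 7.81, 7.98 and 7.80 in wild type, 7.26, 8.39 and 7.81 in alg-1 and 7.87, 7.88 and 7.58 in rde-4. The zfp-1 samples were at 7.54 and 7.90, and the lin-35 unc-13 samples at 8.03 and 8.04. The differences from wild type ran from -0.14 ± 0.28 (SE) in zfp-1 to 0.17 ± 0.28 in lin-35 unc-13. Both lin-35 unc-13 samples were above wild type, by less than the 0.49 between the 2 arrays of replicate 2. The widest spread was within alg-1, with an SD of 0.57. Thus neither unc-86 nor mec-3 had the low level in zfp-1 and lin-35 unc-13 that egl-46 and dma-1 had. Over the 13 samples the r of mec-3 was -0.14 with egl-46 and -0.218 with dma-1. The genes most like unc-86 were T07D4.2 (r = 0.876), cnc-3 (0.861) and F46C5.2 (0.839), and those most like mec-3 were oac-51 (0.885), vps-20 (0.881) and nhr-47 (0.871).

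egl-44 (F28B12.2, chromosome II), whose protein binds EGL-46, did not share the pattern of egl-46 on either of its probe sets. On the brighter one it lay at 10.92, 10.93 and 10.64 in wild type, 10.84, 10.39 and 11.32 in alg-1, and 10.59, 10.89 and 10.84 in rde-4. It lay at 11.20 and 10.70 in zfp-1 and at 10.71 and 10.40 in lin-35 unc-13, so all groups overlapped wild type. The differences ran from -0.28 ± 0.27 (SE) in lin-35 unc-13 to 0.12 ± 0.27 in zfp-1. The other probe set had a mean of 8.17 ± 0.33 (SD, n = 3) in wild type and 8.54 to 8.71 in the mutants, with differences of 0.37 to 0.54, all upwards. The 2 probe sets thus disagreed in sign in lin-35 unc-13 and rde-4. Which transcripts each of them detects was not analysed here. The genes most like egl-44 were C05E11.3 (r = 0.861), T06F4.1 (0.837) and Y43F8B.2 (0.80).

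**Figure D3:**
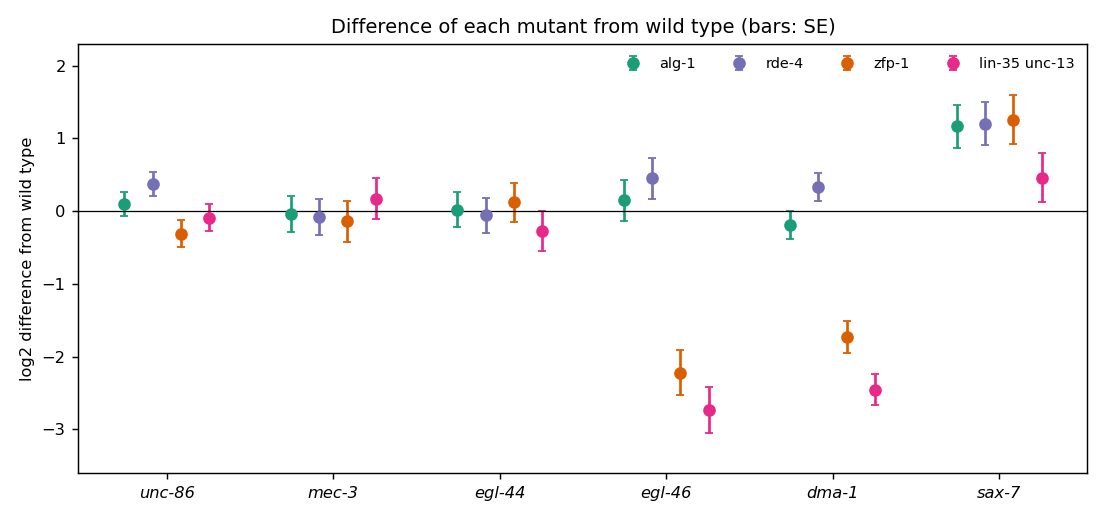
Log2 difference of each mutant from wild type (vertical axis) for the brightest probe set of the 6 genes, with limma's standard error as bars. The 4 values below -1 are those of egl-46 and dma-1 in zfp-1 and lin-35 unc-13, and the values above 1 are those of sax-7 in alg-1, rde-4 and zfp-1.

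The adhesion molecule gene sax-7 (C18F3.2, chromosome IV) had the most probe sets, 4. On the brightest its log2 values were 8.37, 8.30 and 9.16 in wild type, 9.98, 9.46 and 9.90 in alg-1, and 10.02, 9.19 and 10.24 in rde-4. The zfp-1 samples were at 9.83 and 9.91 and the lin-35 unc-13 samples at 9.09 and 9.06. All alg-1, rde-4 and zfp-1 samples lay above wild type, the closest being rde-4 replicate 2, which also had the largest 3′ to 5′ difference of actin. The part of RNA quality in this value was not tested. The differences from wild type were 1.17 ± 0.30 (SE) in alg-1, 1.21 ± 0.30 in rde-4, 1.26 ± 0.33 in zfp-1 and 0.46 ± 0.33 in lin-35 unc-13. Against wild-type replicate 3 alone, they were 0.61, 0.65, 0.71 and -0.09, so the first 3 were smaller and the last had the other sign.

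The other sax-7 probe sets did not give 1 common size. The one with the widest differences differed from wild type by 1.94 ± 0.61 (SE) in zfp-1, 1.21 ± 0.54 in rde-4, 1.02 ± 0.54 in alg-1 and 0.93 ± 0.61 in lin-35 unc-13. A further one differed by 1.26 ± 0.50, 1.24 ± 0.45, 0.51 ± 0.45 and 0.14 ± 0.50 in the same order. On the dimmest, every wild-type sample was below 5 and the differences were within 0.56. Wild type had the lowest mean on the 3 brighter probe sets. On the one with the widest differences, wild-type replicate 3 read 7.16, against mutant means of 7.46 to 8.47. The alg-1 and rde-4 samples overlapped wild type there. On the further one wild-type replicate 3 read 7.27, above the means of alg-1 (7.06) and lin-35 unc-13 (6.69), and both strains overlapped wild type. The genes most like sax-7 over the 13 samples were prp-8 (r = 0.955), a core spliceosome gene, rnp-3 (0.95), a spliceosomal small nuclear ribonucleoprotein gene, and R03H10.2 (0.947). In prp-8, wild-type replicates 1 and 2 were also the lowest samples, at 10.27 and 9.95, with replicate 3 at 10.76.

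**Figure D4:**
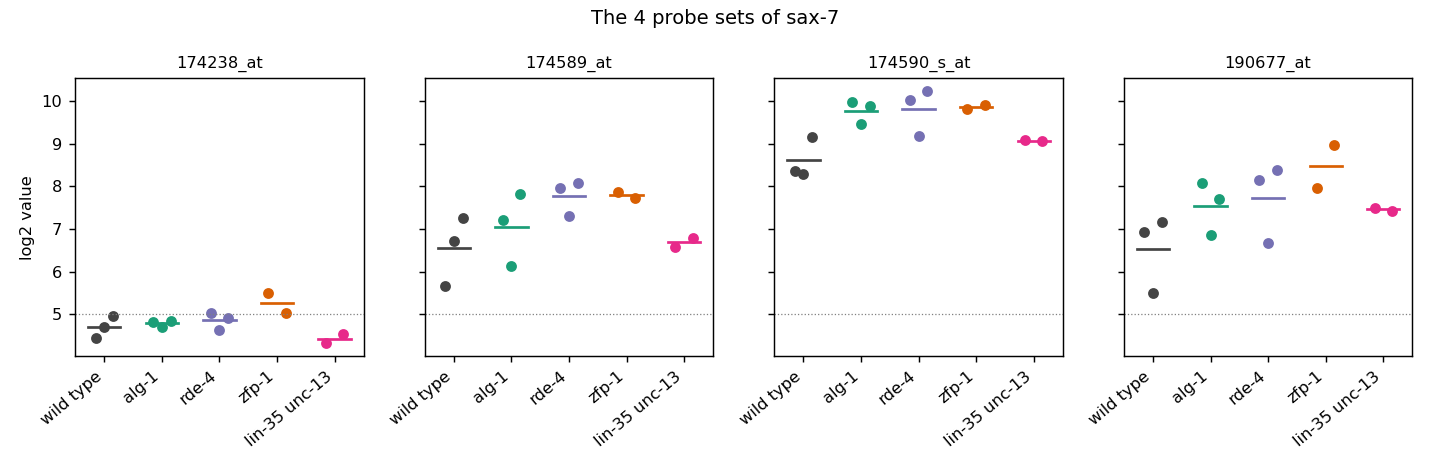
Log2 values of the 4 sax-7 probe sets (panels) per biological sample (points) in the 5 strains, with group means as lines and the value of 5 dotted. On the brightest, 2 of 3 wild-type samples lie below all other samples and wild-type replicate 3 lies at 9.16.

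In the order of levels, rde-4 was highest and lin-35 unc-13 lowest for both egl-46 and dma-1. The strains rde-4, wild type and alg-1 overlapped their neighbours in that order for both genes, while the step down to zfp-1 was 2.22 for egl-46 and 1.54 for dma-1, against residual SDs of 0.37 and 0.20. For sax-7 the order was zfp-1, rde-4, alg-1, lin-35 unc-13 and wild type, and the first 3 differed by 0.09 in all. For egl-44 no pair of neighbouring strains was separated.

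Of the 6 genes, 3 lay wholly below wild type in zfp-1 and 2 in lin-35 unc-13, where 21.9% and 17.4% of all genes tested did so. Wholly above wild type were 1 in alg-1, 1 in zfp-1, 2 in rde-4 and 1 in lin-35 unc-13, where 11.5%, 22.9%, 19% and 18.8% of all genes did. Since the genes were chosen with these values known, nothing is read from the counts. Their median difference was -0.23 in zfp-1 and -0.18 in lin-35 unc-13, against -0.006 and 0.011 for all genes tested.

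Transcripts of touch receptor neurons were measured in all samples. The touch receptor neuron genes mec-4 (a channel subunit), mec-7 and mec-12 (a beta and an alpha tubulin), mec-17 (a tubulin acetyltransferase) and mec-18 were all above 5 in every sample. The mean of the 5 log2 values was 11.31 to 11.43 in wild type, 11.03 to 11.50 in alg-1, 11.09 to 11.33 in zfp-1, 10.61 to 11.53 in rde-4 and 11.12 to 11.49 in lin-35 unc-13. The lowest was rde-4 replicate 2, with mec-4 at 8.01 and mec-12 at 9.62, against 8.91 to 9.62 and 11.16 to 11.28 in the other rde-4 samples. The 16 pan-neuronal markers tested, of 19 listed, had a mean of 10.51 to 10.63 in wild type, 10.63 to 10.71 in zfp-1 and 10.51 to 10.63 in lin-35 unc-13. Their means in zfp-1 and lin-35 unc-13 thus lay at or above the lowest wild-type sample. A mean over markers of all neurons cannot show whether the cells with egl-46 or dma-1 changed in number, which was not tested. None of the 16 passed limma's test in zfp-1 or lin-35 unc-13, with 1 and 2 below an unadjusted p of 0.05. In rde-4, where 4.73% of all genes tested fell, 1 fell, egl-21, named after its value was seen.

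**Figure D5:**
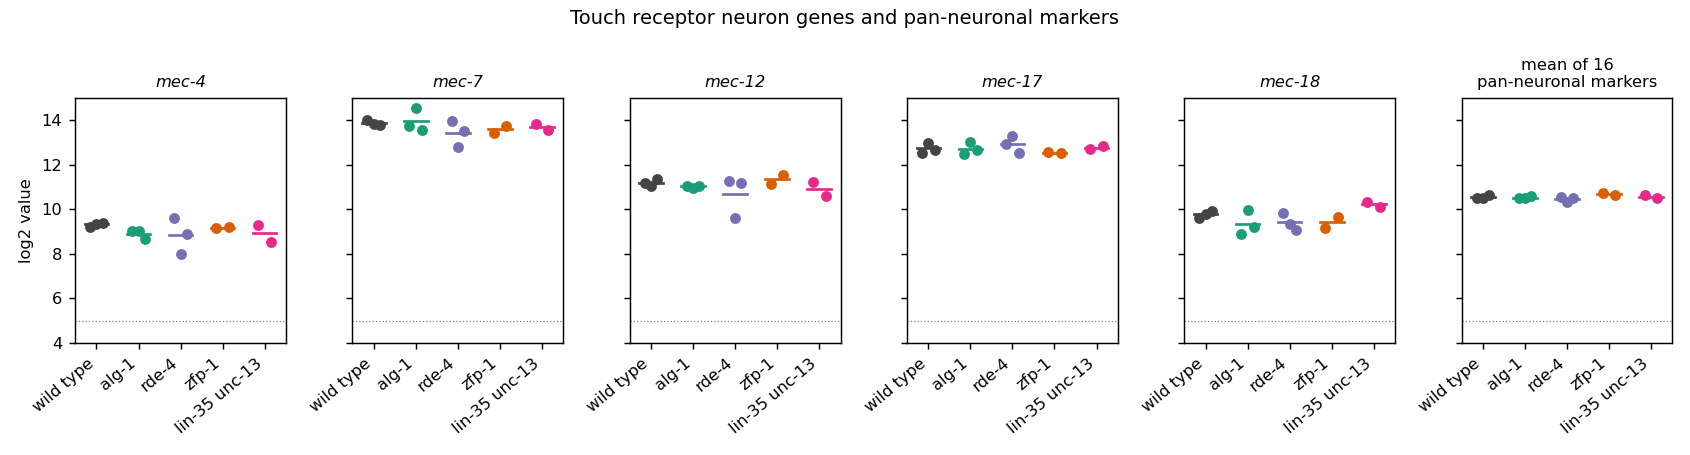
Log2 values of 5 touch receptor neuron genes and the mean of 16 pan-neuronal markers (panels) per biological sample (points) in the 5 strains, with group means as lines and the value of 5 dotted. The pan-neuronal mean lies between 10.34 and 10.71 in all 13 samples.

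Markers of other tissues moved in some strains. Of 10 intestine markers, 2 fell in zfp-1, ges-1 and cpr-6, where 2.92% of all genes tested fell, and the list mean was 10.32 to 10.39 against 11.06 to 11.16 in wild type. The same 2 markers fell in alg-1, at a list mean of 10.74 to 10.77, where 2.06% of all genes tested fell. In rde-4 4 fell, at a list mean of 9.60 to 10.17, where 4.73% of all genes tested fell. The median difference of the list was -0.014 in alg-1, -0.315 in zfp-1 and -0.512 in rde-4. The widest differences were those of cpr-6, cpr-1 and ges-1, at -3.79, -1.78 and -1.74 in zfp-1 and -2.57, -4.22 and -2.42 in rde-4. They were named after their values were seen. Upwards, act-5 differed by 0.82 in zfp-1 and 0.30 in rde-4. In lin-35 unc-13 none passed, with 3 below an unadjusted p of 0.05, and the list mean was 10.79 to 11.03. In lin-35 unc-13, where 5.19% of all genes tested rose, all 5 germ line markers tested did, of 9 listed. They were pgl-1, pgl-3, glh-1, him-3 and syp-1. Their list mean was 10.77 to 11.26 against 3.29 to 3.59 in wild type, and 3.41 to 3.49 in zfp-1. These 5 passed the filter only through their level in lin-35 unc-13, apart from glh-1. Epidermis markers, of interest because sax-7 and mnr-1 act there, had a list mean of 10.86 to 11.11 in wild type, 10.99 to 11.11 in zfp-1 and 10.69 to 10.78 in lin-35 unc-13. In alg-1 it was 11.18 to 11.33, above every wild-type sample, and in rde-4 10.87 to 11.36. The median difference of the list was only 0.085 in alg-1 and 0.057 in rde-4. Of the 8 epidermis markers tested only nhr-23, a nuclear hormone receptor gene, passed. It rose by 1.70 in alg-1 and by 1.42 in rde-4 (limma adjusted p = 0.031 in each), with an SD of 0.66 in wild type. It was named after its values were seen. Of all genes tested, 1.07% rose in alg-1 and 6.38% in rde-4.

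Of 6 pharynx markers tested, marg-1 fell in rde-4 and in lin-35 unc-13 (limma adjusted p = 0.021 and 0.047), also named after its values were seen. In these strains 4.73% and 1.47% of all genes tested fell. The pharynx list mean was 8.53 to 9.51 in wild type, 7.97 to 8.12 in lin-35 unc-13, 9.0 to 9.12 in zfp-1, 7.43 to 9.05 in rde-4 and 8.38 to 9.26 in alg-1. It was thus below wild type in lin-35 unc-13 and within its range in zfp-1. The 3 glia markers tested had a list mean of 7.61 to 7.90 in wild type, 6.73 to 7.40 in lin-35 unc-13, 7.92 to 7.94 in zfp-1, 7.08 to 8.45 in rde-4 and 7.99 to 8.26 in alg-1. By limma 0 of 3 passed in any mutant, and 0 lay below an unadjusted p of 0.05. Of 10 body wall muscle markers 0 passed by limma in any mutant, and 0 lay below an unadjusted p of 0.05. The part of these tissues in the levels of egl-46, dma-1 and sax-7 was not tested.

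Other genes of the pathway were tested in 4 lists, 78 genes besides the 6 above, of which 67 were bright enough. In the zfp-1 mutant 0 of 67 passed limma's test (adjusted p under 0.05), where 4.20% of all genes tested did, 1.27% higher and 2.92% lower. At an unadjusted p under 0.05 there were 5 higher and 4 lower, against 22% of all genes in either direction. In lin-35 unc-13, 1 rose and 1 fell, where 5.19% and 1.47% of all genes did (6.66% together). In alg-1, 0 rose and 1 fell, against 1.07% and 2.06% (3.13% together), and in rde-4, 1 rose and 2 fell, against 6.38% and 4.73% (11.1% together). At an unadjusted p under 0.05 there were 4 in alg-1, 9 in rde-4 and 9 in lin-35 unc-13, against 18.3%, 29.3% and 20.4% of all genes. The shares called were 1.49% in alg-1, 4.48% in rde-4 and 2.99% in lin-35 unc-13, each below that of all genes. The median difference of the 67 genes was within 0.04 of zero in every mutant.

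Of the 16 touch receptor neuron genes, all tested, 0 passed in any mutant by limma, with 0 below an unadjusted p of 0.05 in alg-1 and zfp-1, 1 in rde-4 and 2 in lin-35 unc-13. Their median difference was -0.28 in zfp-1, -0.14 in lin-35 unc-13, -0.11 in rde-4 and -0.09 in alg-1. Of 15 fate regulators tested, 0 passed in any mutant, with 1 or 2 below an unadjusted p of 0.05. Among them ahr-1, the aryl hydrocarbon receptor that separates touch neuron from PVD-type fates, differed by -1.04 ± 0.38 (SE) in zfp-1 and -1.06 ± 0.38 in lin-35 unc-13 (limma adjusted p = 0.14 in each). It was named after its value was seen. These differences did not pass the test.

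Of 21 PVD dendrite genes tested, exoc-8 alone passed. It encodes a subunit of the exocyst, which works with RAB-10 in the delivery of DMA-1 to the dendrite. exoc-8 lay at 8.74, 8.72 and 9.27 in wild type, 9.90, 9.80 and 9.74 in rde-4 and 9.68 and 9.83 in lin-35 unc-13. It rose by 0.90 ± 0.19 (SE, limma adjusted p = 0.018) in rde-4 and by 0.85 ± 0.22 (limma adjusted p = 0.038) in lin-35 unc-13, and every sample of both lay above wild type. A second exoc-8 probe set above 5, with a wild-type mean of 6.63, differed more widely, by 1.41 in rde-4, 1.72 in lin-35 unc-13, 1.22 in zfp-1 and 1.07 in alg-1. Set against wild-type replicate 3 alone the values were 0.55 and 0.49, and neither passed (limma adjusted p = 0.53 and 0.59). Both calls were also lost without wild-type replicate 1 or 2, and that in rde-4 without rde-4 replicate 1. In fits of 1 mutant and wild type both were lost as well (limma adjusted p = 0.069 in rde-4 and 0.18 in lin-35 unc-13). With array medians subtracted the lin-35 unc-13 call was lost (limma adjusted p = 0.12).

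The call of exoc-8 in lin-35 unc-13 was further lost without either of that strain's samples, without either zfp-1 sample, without alg-1 replicate 3 and without rde-4 replicate 1 or 3. The genes for DMA-1's other partners, named by their role, did not pass in any mutant. mnr-1 differed by 0.20 ± 0.25 (SE) in zfp-1 and 0.56 ± 0.25 in lin-35 unc-13, and lect-2 by -0.43 ± 0.26 and -0.22 ± 0.26. The dendrite genes hpo-30 and kpc-1, a claudin-like protein and a furin-type protease, differed by -0.09 ± 0.18 and 0.12 ± 0.24 in zfp-1 and by 0.09 ± 0.18 and 0.26 ± 0.24 in lin-35 unc-13. None of these 4 genes differed from wild type in the 2 strains by as much as dma-1.

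Of 15 L1CAM partners and maintenance genes tested, 1 fell in alg-1, 2 in rde-4 and 1 in lin-35 unc-13, and in zfp-1 0 passed, with 4 below an unadjusted p of 0.05. zig-5 encodes a secreted immunoglobulin protein that acts with SAX-7 to keep neurons in place. It lay at 10.10, 10.04 and 9.67 in wild type, 8.55, 8.95 and 8.51 in alg-1, 9.33, 8.87 and 8.58 in rde-4, 9.18 and 8.77 in lin-35 unc-13 and 9.10 and 9.18 in zfp-1. All mutant samples lay below wild type. It fell by 1.27 ± 0.23 (SE, limma adjusted p = 0.015) in alg-1, by 1.01 ± 0.23 (limma adjusted p = 0.022) in rde-4 and by 0.96 ± 0.26 (limma adjusted p = 0.046) in lin-35 unc-13. The zfp-1 difference, -0.80, did not pass.

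All 3 zig-5 calls were lost against wild-type replicate 3 alone, at -1.0, -0.74 and -0.69, and without wild-type replicate 1 or 2. They were also lost without alg-1 replicate 1 or 3 in alg-1, without rde-4 replicate 2 or 3 in rde-4, and in lin-35 unc-13 without either of its samples, either zfp-1 sample, alg-1 replicate 1 or 3 or rde-4 replicate 2. dig-1, which encodes a giant secreted matrix protein needed to maintain axon positions, lay at 10.15, 10.08 and 10.62 in wild type and 8.98, 8.02 and 9.14 in rde-4. It fell by 1.57 ± 0.32 (SE, limma adjusted p = 0.014) in rde-4, and its other probe set differed by -1.33. The lowest value was in rde-4 replicate 2, which had the largest 3′ to 5′ difference of actin. What part RNA quality had in the fall of dig-1 was not tested. The call was lost in the fit of rde-4 and wild type alone (limma adjusted p = 0.053). Against wild-type replicate 3 alone the difference was -1.91 (limma adjusted p = 0.19).

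The nearest gene tested on each side of a member along the chromosome was compared as well, a rule added after the values were seen. These genes need not be adjacent, as 0 to 5 protein-coding genes that were not tested lay between. There were 4 between pmp-5 and egl-46, 1 between egl-46 and mtl-1 and 1 between nhr-31 and sax-7. Of the 12 neighbours 0 passed limma's test in zfp-1 or lin-35 unc-13. In alg-1 1 passed, pmp-5 on one side of egl-46, and in rde-4 1 passed, nhr-31 on one side of sax-7. Of all genes tested, 4.20% passed in zfp-1, 6.66% in lin-35 unc-13, 3.13% in alg-1 and 11.1% in rde-4. nhr-31 fell by 0.83 in rde-4 (limma adjusted p = 0.0267), and rabs-5 on the other side of sax-7 differed by 0.16 there. The neighbours of dma-1 are phaf-1, at -1.02 in zfp-1 and -0.51 in lin-35 unc-13, and kin-10, at 0.51 and -0.17. Those of egl-46 are pmp-5, at -3.73 and -3.69, and mtl-1, a metallothionein gene, at -2.46 and -0.58. In alg-1, where egl-46 overlapped wild type, pmp-5 fell from a mean of 9.83 to 4.71, which is below 5, so the size of its fall is not given. mtl-1, which did not pass, was at -1.93 there.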

How the data were processed

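Per the labels, the authors made the deposited log2 values with GCRMA, a method that adjusts background for the bases of each probe and gives 1 value per probe set. Its version and options are not known here. RNA (5 microgram per sample) was labelled with biotin. The series calls replicates separately grown populations. Arrays of 1 sample were averaged. Of 22625 probe sets, 20766 had exactly 1 gene, named through RefSeq assembly WBcel235. RefSeq start positions were used only to order genes when neighbours were sought, and no sequences were used. The brightest probe set per gene was kept, and 8653 genes at 5 or more in at least 2 samples were tested with limma 3.58.1 (R 4.3.3, lmFit and eBayes, all 5 strains together, two-sided, Benjamini-Hochberg over all genes, 8 residual and 3.49 prior degrees of freedom). SE is limma's. The number of arrays limits precision. The genes and lists were chosen with earlier results of these data known. Named are the 6 genes, up to 6 called genes per pathway list and mutant, and the 3 genes with the highest r to each member; others are marked. No outcome of a check of the fit on simulated data is given here, and nothing is read from one. Whether the replicate numbers pair samples is not known. Deviations from group means in same-numbered samples had r of -0.27 to 0.384, and differently numbered samples were not compared as a baseline. The main fit used no pairing.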

Additional observations from a re-analysis of the deposited data

How the results depend on the processing

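For the 6 genes, 475 values under an alternative moved by less than the residual SD and 21 by more. Of the latter, 11 were of sax-7 and 4 of egl-44, on other probe sets or, for sax-7, against wild-type replicate 3 alone, and 5 were of dma-1, 4 of them against that replicate alone and -2.72 in lin-35 unc-13 with quantile normalisation. The last was unc-86 in lin-35 unc-13, at -0.25 with array medians subtracted. The background counts of called genes depended on the processing far more. For alg-1, rde-4, zfp-1 and lin-35 unc-13 in turn, against 271, 961, 363 and 576, the counts were 136, 260, 147 and 313 in fits of 1 mutant and wild type, 14, 30, 19 and 290 against wild-type replicate 3 alone (assumed to vary like the other groups), and 58, 151, 80 and 339 at an adjusted p under 0.01. Without a filter on dim genes they were 137 for alg-1, 376 for rde-4 and 167 for zfp-1. With the replicate number as a block, all 4 counts were higher, at 356 for alg-1, 1185 for rde-4, 856 for zfp-1 and 688 for lin-35 unc-13. What same-numbered samples share is not known. Omitting each sample in turn gave 67 to 493, 229 to 1442, 45 to 851 and 183 to 777.

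The counts of pathway genes called, 1, 3, 0 and 2 in the same order, rest on few genes. For alg-1, rde-4 and lin-35 unc-13 they were 0 against wild-type replicate 3 alone and 0 at an adjusted p under 0.01. In fits of 1 mutant and wild type they were 0 for rde-4 and 0 for lin-35 unc-13. With every probe set tested they were 5 for rde-4, 3 for zfp-1 and 4 for lin-35 unc-13. For lin-35 unc-13 the count was 1 without a filter and 1 with array medians subtracted, and with the replicate block it was 4 for zfp-1. Omitting each sample gave 0 to 2 for alg-1, 1 to 4 for rde-4, 0 to 2 for zfp-1 and 0 to 3 for lin-35 unc-13. The cause of these changes was not tested.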
